A study of Mus musculus with 2 samples.

Results

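Of the 1915 mature miRNA names counted, 7 are described here, all of them linked to the tumour suppressor p53. They are mmu-miR-34a-5p, mmu-miR-34b-5p, mmu-miR-34b-3p and mmu-miR-34c-5p of the miR-34 family, and mmu-miR-192-5p, mmu-miR-194-5p and mmu-miR-215-5p of the miR-192, miR-194 and miR-215 group. They were chosen by name, as known p53 targets, and not by a threshold on their counts, though with earlier results of these data known. Small RNA was sequenced from bone marrow-derived macrophages (BMDMs), which are grown in culture from bone marrow progenitors with L-cell conditioned medium, a source of macrophage colony-stimulating factor. The cells came from wild-type C57/BL6 mice at 8 weeks of age, were not stimulated, and were harvested as the adherent cells of the culture, with no sort by surface marker. Replicates 1 and 2 are labelled as biological replicates of this 1 condition, so there were no groups to compare, and p53 itself was not measured. Replicate 1 held 7322969 miRNA counts and replicate 2 held 8094314. Levels are given as reads per 1000000 miRNA counts of a library (RpM), with the SD over both libraries (n = 2) or the 95% Wilson interval within a library, which reflects counting error alone since amplified reads were not traced to molecules.

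A miRNA is cut from a hairpin precursor, whose 5p or 3p arm is loaded into a silencing complex and finds its target mRNAs mainly through the seed, bases 2 to 8 from its 5′ end. After DNA damage p53 switches on transcription of the miR-34a gene and of the miR-34b/c gene pair, and miR-34 then lowers proteins of the cell cycle and of survival, such as Bcl2, Met and cyclin-dependent kinases. miR-34b and miR-34c are also known from multiciliated epithelia and male germ cells, where they are found with the related miR-449 family. miR-192, miR-194 and miR-215 respond to p53 as well and are best known from gut, liver and kidney epithelium.

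The mature sequences of 6 of the 7 members were matched in RefSeq (GRCm38.p6), and they are shown here, with the relatives that have the same seed, because miRNAs with a common seed can bind the same sites. Capitals mark the seed.
mmu-miR-34a-5p: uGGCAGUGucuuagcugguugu
mmu-miR-34b-5p: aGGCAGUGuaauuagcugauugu
mmu-miR-449a-5p: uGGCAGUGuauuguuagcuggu
mmu-miR-449c-5p: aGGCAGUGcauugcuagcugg
mmu-miR-34b-3p: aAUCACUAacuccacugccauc
mmu-miR-34c-3p: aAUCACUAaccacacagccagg
mmu-miR-192-5p: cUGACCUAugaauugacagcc
mmu-miR-215-5p: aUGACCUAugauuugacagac
mmu-miR-194-5p: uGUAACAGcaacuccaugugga
These 6 members carry 4 seeds. miR-34a-5p and miR-34b-5p share theirs with miR-449a-5p and miR-449c-5p, miR-192-5p and miR-215-5p share another, and the seed of miR-34b-3p recurs in miR-34c-3p. miR-194-5p shared its seed with no other name among the 1623 names that had a mature sequence. From miR-192-5p to miR-215-5p the substitutions are C1A, A12U and C20A, with positions counted from 1 at the 5′ end. Among the names with a mature sequence, no other came within 3 edits of any of the 6 members, and the closest of them to miR-34a-5p was miR-34b-5p at 4 edits. miR-34c-5p was not compared by sequence here. Whether reads were exchanged between miR-192-5p and miR-215-5p, or between names of the miR-34 family, was not tested.

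The hairpin genes lie at 4 sites of GRCm38 in the GENCODE annotation. Mir34a (ENSMUSG00000065493.1) is at chr4:150068454-150068555 on the plus strand, and its end overlaps an exon of Gm37795, a gene still to be experimentally established, on the same strand. Mir34b (ENSMUSG00000065492.1, chr9:51103562-51103645) and Mir34c (ENSMUSG00000065587.1, chr9:51103034-51103110) lie 451 bases apart on the minus strand, within an intron of the protein-coding gene Btg4, which is on the other strand. Mir194-2 (ENSMUSG00000065582.1, chr19:6264643-6264728) and Mir192 (ENSMUSG00000065523.1, chr19:6264844-6264932) lie 115 bases apart on the plus strand and overlap no other annotated gene. Mir194-1 (ENSMUSG00000065581.1, chr1:185313319-185313385) and Mir215 (ENSMUSG00000065562.1, chr1:185313581-185313692) lie 195 bases apart on the plus strand, opposite an intron of Iars2. On their own strand is the non-coding gene 2010103J01Rik, which has Mir215 in an exon and Mir194-1 in an intron. The same mature miR-194-5p is made from Mir194-1 and Mir194-2, and its count does not separate them.

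All 7 members had counts in both libraries, and the lowest of the 14 counts was 41. The floor, the level that a count of 0 still allows (3 counts of the total), corresponded to 0.410 RpM for replicate 1 and 0.371 RpM for replicate 2, so each member lay above it in each library. Summed, the members held 0.188% of all miRNA counts in replicate 1 (95% interval 0.185 to 0.191) and 0.216% in replicate 2 (0.213 to 0.219), a mean of 0.202% ± 0.0196 (SD, n = 2). Of the 448 miRNAs with at least 10 counts in each library, the median level was 36.1 RpM, and 4 members were above it and 3 under it. In bulk RNA a low level in all cells and a higher level in few cells cannot be told apart.

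miR-34a-5p, the member of the family most often studied as a p53 target, was also its most abundant product in these BMDMs. It had 4001 counts in replicate 1 (546 RpM, 95% interval 530 to 564) and 4230 in replicate 2 (523 RpM, 507 to 539), ranking 80 and 81 among all names. At a mean of 534 ± 16.8 RpM (SD, n = 2) it stood 502-fold below miR-21a-5p, the most abundant miRNA of both libraries. miR-34c-5p followed closely, with 3032 counts in replicate 1 (414 RpM, 400 to 429) and 3500 in replicate 2 (432 RpM, 418 to 447), a mean of 423 ± 13.0 RpM (SD, n = 2). The gap between them exceeded the SD of either, and miR-34a-5p was the higher by 1.32-fold in replicate 1 and by 1.21-fold in replicate 2.

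miR-34b, whose hairpin neighbours that of miR-34c, was far lower. miR-34b-5p had 140 counts in replicate 1 (19.1 RpM, 16.2 to 22.6) and 136 in replicate 2 (16.8 RpM, 14.2 to 19.9). miR-34b-3p had 53 counts in replicate 1 (7.24 RpM, 5.53 to 9.47) and 41 in replicate 2 (5.07 RpM, 3.73 to 6.87). Both products of miR-34b were thus well above the floor, but miR-34c-5p exceeded miR-34b-5p 23.7-fold ± 2.88 (SD, n = 2) in spite of the shared site. The 4 miR-34 members, added up by family name and not by seed, together reached 987 and 977 RpM in replicates 1 and 2 (982 ± 7.0, SD, n = 2), of which miR-34a-5p made up 54.4%, miR-34c-5p 43.1%, miR-34b-5p 1.83% and miR-34b-3p 0.626%. Counted by name, miR-34a-5p stood at 534 RpM and the 3 products of miR-34b and miR-34c together at 447 ± 9.81 RpM (SD, n = 2). miR-34a-5p was the higher in both libraries, at 546 against 440 RpM in replicate 1 and 523 against 454 RpM in replicate 2. Exchange of reads between these names was not tested.

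miR-192-5p was the most abundant of the 7 members. It had 6118 counts in replicate 1 (835 RpM, 815 to 857) and 8978 in replicate 2 (1109 RpM, 1086 to 1132), ranking 68 and 62, with a mean of 972 ± 194 RpM (SD, n = 2). miR-215-5p, with the same seed, had 62 counts in replicate 1 (8.47 RpM, 6.61 to 10.9) and 117 in replicate 2 (14.5 RpM, 12.1 to 17.3). Among the 1623 names with a mature sequence, miR-192-5p thus supplied 98.9% ± 0.200 (SD, n = 2) of the counts with that seed. It exceeded miR-215-5p by 98.7-fold in replicate 1 and by 76.7-fold in replicate 2. miR-194-5p lay between them, with 373 counts in replicate 1 (50.9 RpM, 46.0 to 56.4) and 467 in replicate 2 (57.7 RpM, 52.7 to 63.2). Even with all counts of miR-194-5p assigned to Mir194-2, the neighbour of Mir192, miR-192-5p was 17.8-fold ± 2.00 (SD, n = 2) more abundant. These are ratios of counts, and ligation and amplification in small RNA libraries differ between sequences.

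**Figure D1:**
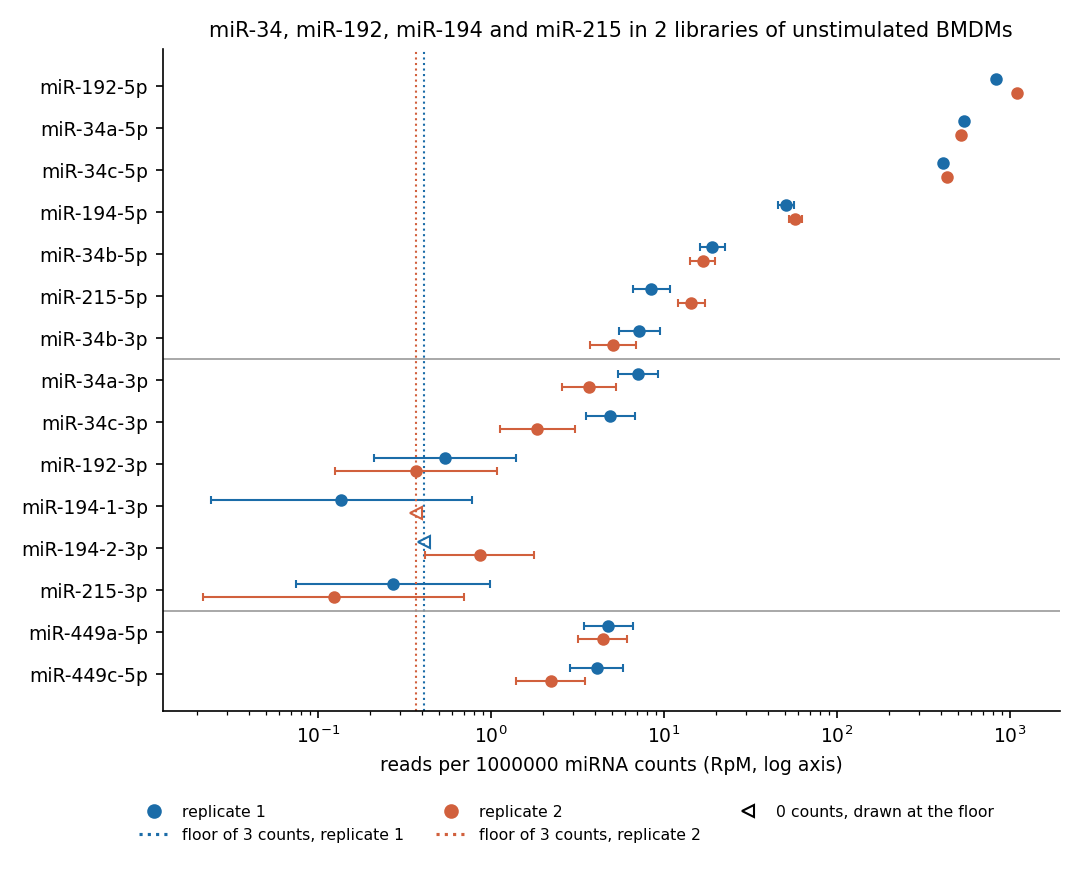
Level of each member (top), of the other arms of their hairpins (middle) and of the miR-449 relatives (bottom), in RpM on a log axis, with 1 point per library and its 95% Wilson interval; dotted lines mark the floor of 3 counts and open triangles a count of 0. The members span from 5.07 RpM (miR-34b-3p in replicate 2) to 1109 RpM (miR-192-5p in replicate 2), all above the floor, whereas 4 of the 6 other arms have at least 1 library at or under it.

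From the highest to the lowest mean, the order was miR-192-5p, miR-34a-5p, miR-34c-5p, miR-194-5p, miR-34b-5p, miR-215-5p and miR-34b-3p. This order held in both libraries, and each gap between neighbours exceeded the SD of both. The last steps were the least certain. The Wilson intervals of miR-34b-5p and miR-215-5p overlapped in replicate 2, and those of miR-215-5p and miR-34b-3p overlapped in replicate 1. Means for these 3 were 18.0 ± 1.64, 11.5 ± 4.23 and 6.15 ± 1.54 RpM (SD, n = 2). By Euclidean distance of log2 RpM in both libraries, over the same 448 miRNAs, the names nearest in level to miR-34a-5p were miR-326-3p and miR-107-3p, and those nearest to miR-34c-5p were miR-29c-3p and miR-106b-5p. miR-125b-5p and miR-130b-3p were nearest to miR-192-5p, miR-425-3p and miR-1981-5p to miR-194-5p, and miR-185-3p and miR-101c to miR-215-5p. For miR-34b-5p they were miR-467d-5p and miR-181c-3p, and for miR-34b-3p miR-5114 and miR-503-3p.

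**Figure D2:**
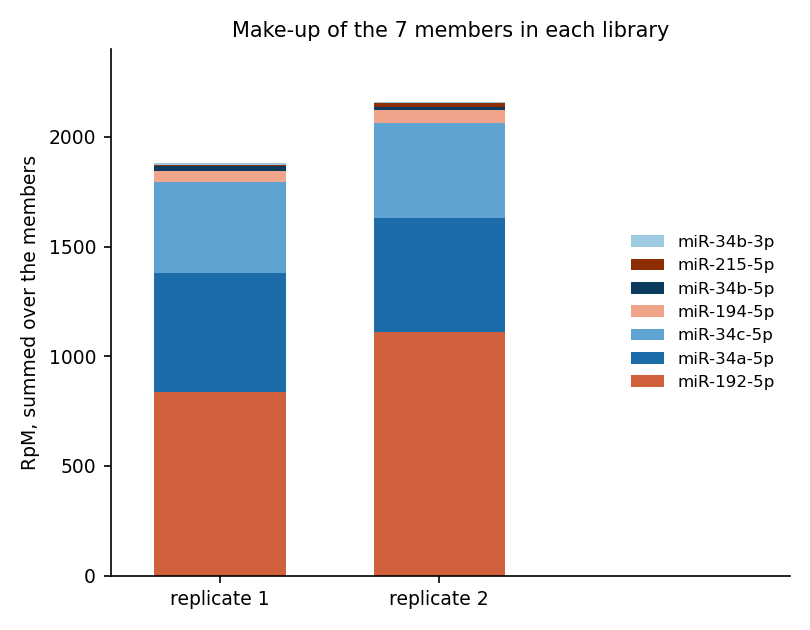
Stacked bars of the RpM of the 7 members in each library, from 0. The bar of replicate 2 is taller (2158 against 1882 RpM) mainly through miR-192-5p, which takes 44.4% of the sum in replicate 1 and 51.4% in replicate 2, while the 4 miR-34 members sum to 987 and 977 RpM.

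The miR-449 family, which has the seed of miR-34a-5p and miR-34b-5p, added little. miR-449a-5p had 35 and 36 counts and miR-449c-5p had 30 and 18 counts in replicates 1 and 2. miR-34a-5p and miR-34b-5p summed exceeded them 72.3-fold ± 12.1 (SD, n = 2), a sum without miR-34c-5p, which was not compared by sequence. All 4 miR-34 members, taken by family name, exceeded them 129-fold ± 24.9 (SD, n = 2).

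The hairpins were used unevenly, mostly from the 5p arm. miR-34a-3p had 52 and 30 counts in replicates 1 and 2, so that the 5p arm held 99.0% ± 0.409 (SD, n = 2) of the counts of the hairpin. miR-34c-3p had 36 and 15 counts, and the 5p arm held 99.2% ± 0.528 (SD, n = 2). In miR-192 the 5p arm held almost all counts, 99.95% ± 0.0226 (SD, n = 2), with 4 and 3 counts for miR-192-3p. miR-34b was less one-sided than its neighbours. Its 5p arm held 72.5% of the counts in replicate 1 and 76.8% in replicate 2, a mean of 74.7% ± 3.04 (SD, n = 2). Across 155 hairpins with at least 100 counts over both arms in each library, the median share of the more abundant arm was 97.3% (quartiles 85.7 and 99.6), and 49 hairpins, or 31.6%, were under 90%. In 86 of these 155 hairpins the more abundant arm was the 5p arm. Ordered from the most one-sided, miR-192 ranked 13, miR-34c 48, miR-34a 55 and miR-34b 135. The hairpin of miR-215 had fewer than 100 counts in replicate 1, and its 5p arm held 96.9% and 99.2% of the counts in replicates 1 and 2.

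The remaining arms were at the limit of detection and bear on which site was in use. miR-215-3p had 2 and 1 counts in replicates 1 and 2, under the floor, so that Mir215 was seen through miR-215-5p alone above the floor. The 3p arms of the miR-194 genes differ in sequence, unlike their 5p arm. miR-194-1-3p had 1 count in replicate 1 and 0 in replicate 2. miR-194-2-3p had 0 counts in replicate 1, which allows up to 0.410 RpM, and 7 in replicate 2 (0.865 RpM, 95% interval 0.419 to 1.79). The share of miR-194-5p from each gene was not detectable at this depth. No member was without counts. By mature counts, the 5p arms of Mir34a, Mir34c and Mir192 stood at over 400 RpM each and both arms of Mir34b at 5.07 to 19.1 RpM, and at least 1 of Mir194-1 and Mir194-2 gave miR-194-5p. The name miR-215-5p stood at 8.47 and 14.5 RpM, but use of Mir215 was not settled, since reads of miR-192-5p counted under that name were not tested for. Likewise, reads of miR-34c-5p counted under miR-34b-5p were not tested for. Mature counts do not measure transcription of these genes.

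**Figure D3:**
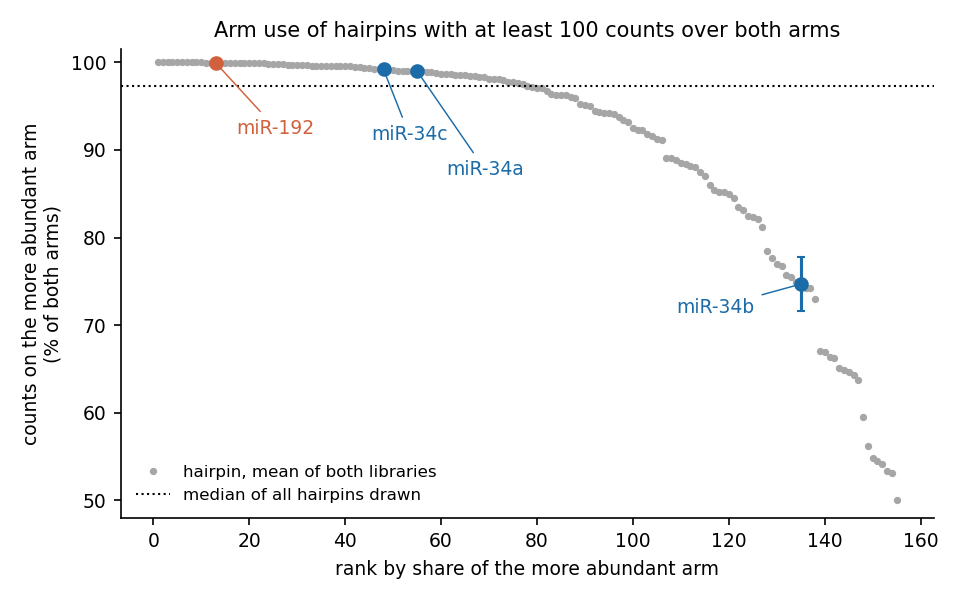
Percent of the counts of a hairpin that fall on its more abundant arm, for 155 hairpins ordered by the mean of both libraries, with the SD drawn for the hairpins of the members. miR-192, miR-34c and miR-34a lie above the median of 97.3% (dotted line), and miR-34b lies at 74.7%.

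The libraries were then compared to see how far each member varied between cultures of the same condition. Among the members, miR-192-5p and miR-215-5p, which share a seed, were higher in replicate 2, and with library totals none of the 4 miR-34 members passed the test. Fisher's exact test (two-sided, Benjamini-Hochberg adjustment over 588 miRNAs with at least 10 counts summed) compares these libraries, not conditions, and sees counting error only. It called 2 of the 7 members at an adjusted p under 0.05, where it called 44.2% of all 588 miRNAs. Both members were higher in replicate 2, against 13.8% of all miRNAs called higher and 30.4% called lower, and 0 members were called lower. The log2 ratio of replicate 2 to replicate 1 was 0.41 for miR-192-5p (95% counting interval 0.36 to 0.46, exact adjusted p = 2.62e-65) and 0.77 for miR-215-5p (0.33 to 1.22, exact adjusted p = 0.00165). Among miRNAs with a mean count within 3-fold of each, the SD of the log2 ratio was 0.39 around miR-192-5p (63 miRNAs) and 0.64 around miR-215-5p (136 miRNAs), so both ratios were close in size to the spread of single miRNAs at their level. The log2 ratio was -0.06 for miR-34a-5p (exact adjusted p = 0.0935) and 0.06 for miR-34c-5p (exact adjusted p = 0.158). For miR-34b-5p it was -0.19 (exact adjusted p = 0.455), for miR-34b-3p -0.51 (exact adjusted p = 0.185) and for miR-194-5p 0.18 (exact adjusted p = 0.155). None of the 7 members was more than 2-fold apart between the libraries, against 7.81% of the 448 miRNAs.

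These directions depend in part on the scaling, because the median log2 ratio of the 448 miRNAs was -0.17 with library totals, -0.04 with TMM effective sizes and -0.03 with DESeq2 size factors. Relative to the median, the log2 ratio was 0.58 for miR-192-5p, 0.95 for miR-215-5p, 0.35 for miR-194-5p, 0.24 for miR-34c-5p, 0.11 for miR-34a-5p, -0.01 for miR-34b-5p and -0.34 for miR-34b-3p. With TMM the exact test called 4 members higher in replicate 2, where it called 20.7% of all miRNAs higher, and with DESeq2 size factors 5 members, where it called 21.1%. The DESeq2 size factor was 1 for each library, so ratios with it are of raw counts, not adjusted for the totals of 7322969 and 8094314. No member was called lower with TMM or DESeq2 size factors, where 23.3% and 21.6% of all miRNAs were. With miR-21a-5p left out of the totals, miR-34a-5p was instead called lower in replicate 2 (log2 ratio -0.11, exact adjusted p = 0.00181), the 1 member called lower where 32.4% of 587 miRNAs were, and 2 members were called higher, against 12.3%. The direction of miR-34a-5p was thus not settled by these libraries. The members gained with TMM or DESeq2 size factors were miR-34c-5p (log2 ratio 0.19 with TMM and 0.21 with DESeq2 size factors), miR-194-5p (0.31 and 0.32) and, with DESeq2 size factors alone, miR-34a-5p, whose log2 ratio changed sign to 0.08 (exact adjusted p = 0.0291). Over all 588 miRNAs the split of 81 higher and 179 lower with library totals became 122 and 137 with TMM and 124 and 127 with DESeq2 size factors. miR-192-5p and miR-215-5p were called higher in replicate 2 with library totals, TMM, DESeq2 size factors and totals without miR-21a-5p.

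**Figure D4:**
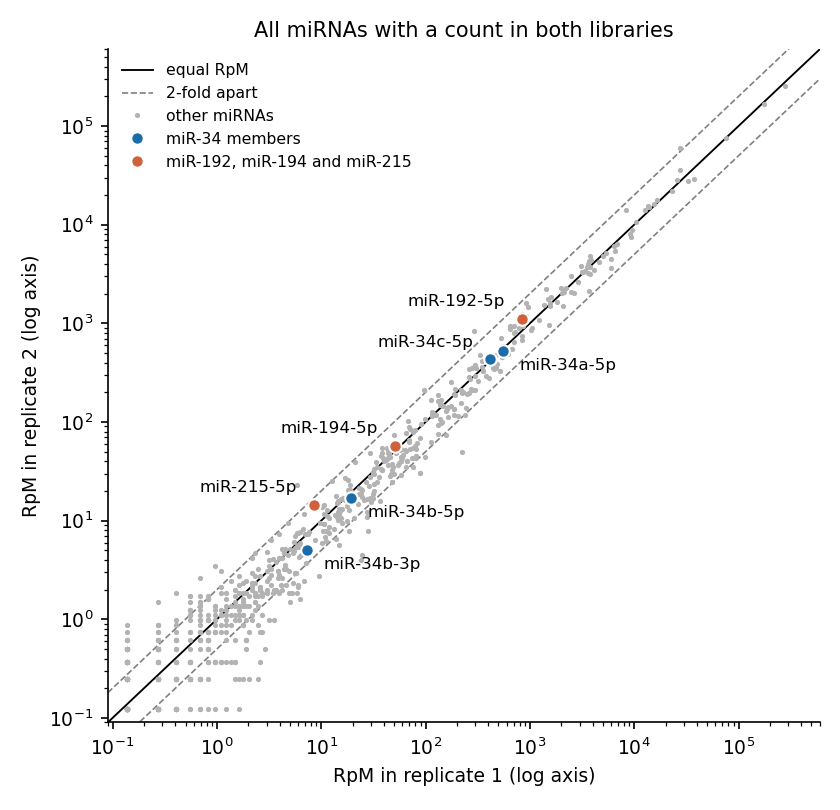
RpM in replicate 1 against RpM in replicate 2, log axes, for the 776 miRNAs with a count in both libraries; dashed lines mark a 2-fold difference. All 7 members lie between the dashed lines, with miR-192-5p, miR-215-5p, miR-194-5p and miR-34c-5p above the line of equal RpM and the other 3 below it.

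**Figure D5:**
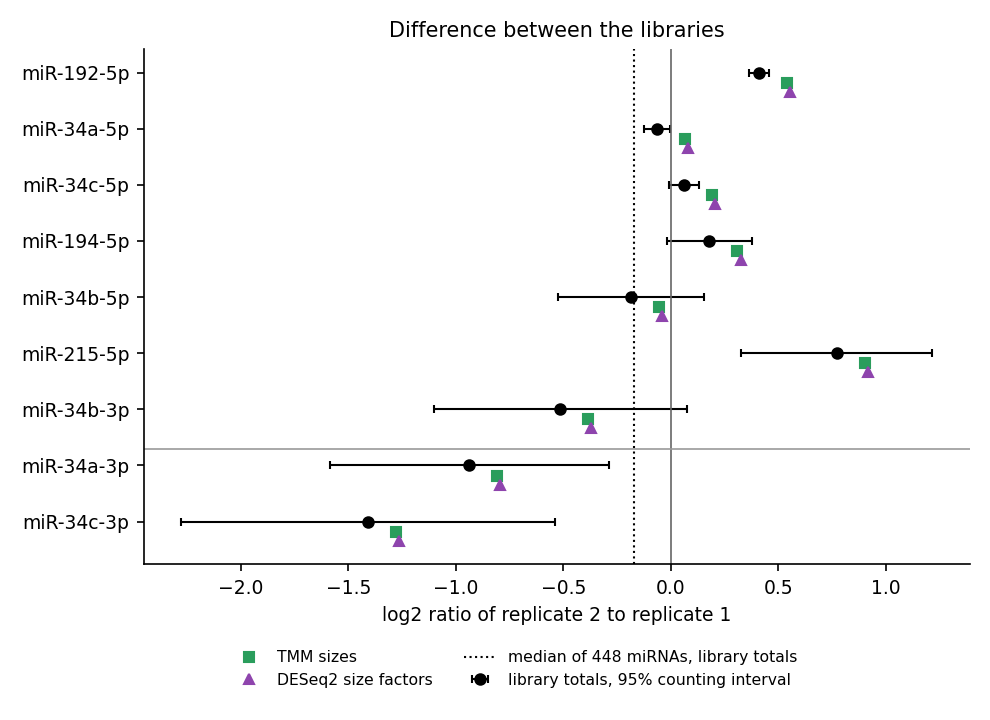
Log2 ratio of replicate 2 to replicate 1 for the members and the 3p arms of miR-34a and miR-34c, with library totals (circles, 95% counting interval), TMM sizes (squares) and DESeq2 size factors (triangles); the dotted line is the median of 448 miRNAs with library totals. miR-192-5p (0.41) and miR-215-5p (0.77) lie to the right of 0 under the 3 scalings drawn, and miR-34a-5p crosses it, from -0.06 with library totals to 0.08 with DESeq2 size factors.

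The minor arms of miR-34a and miR-34c were lower in replicate 2, while their major arms were not called with library totals. Of the major arms, miR-34c-5p was called higher with TMM and DESeq2 size factors, and miR-34a-5p with DESeq2 size factors alone. miR-34a-3p was lower in replicate 2 by a log2 ratio of -0.94 (exact adjusted p = 0.0104) and miR-34c-3p by -1.41 (exact adjusted p = 0.00311), and both remained lower with TMM and with DESeq2 size factors. The ratio of the 5p to the 3p arm accordingly differed between the libraries, at 76.9 and 141 in miR-34a and 84.2 and 233 in miR-34c in replicates 1 and 2. The difference between arms was not itself tested. At 15 to 52 counts these arms carry wide counting intervals.

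Other miRNAs of the p53 network give the setting of these levels. Of 9 miRNAs that p53 is known to raise or to help mature, 8 were in the table and all 8 had counts in both libraries, while miR-605-5p was not analysed here. They held 19.0% of all counts on average, most of it miR-22-3p with 17.2%, at 176756 and 167985 RpM in replicates 1 and 2. Next came miR-16-5p, whose processing p53 assists, with 15512 and 16220 RpM. With library totals replicate 2 had 13.8% of all 588 miRNAs called higher and 30.4% called lower, TMM gave 20.7% and 23.3%, DESeq2 size factors gave 21.1% and 21.6%, and the counts for these short lists are given as a description beside those shares. By the exact test 2 of the 8 were higher and 5 lower in replicate 2 with library totals, but 3 were higher and 2 lower with either TMM or DESeq2 size factors. The lists overlap, since miR-143-3p, miR-141-3p and miR-200c-3p are among those 5 and are also counted below as fibroblast or epithelial markers. The 2 lower with TMM or DESeq2 size factors were miR-143-3p and miR-141-3p. Of 6 miRNAs known to repress p53, 5 had counts in both libraries, and miR-504-5p had 0 and 3 counts. Together they held 4.01% of counts, with miR-30d-5p the most abundant, and 3 were higher and 1 lower in replicate 2 (4 and 1 with TMM or DESeq2 size factors). miR-125b-5p, which targets the p53 mRNA and was nearest in level to miR-192-5p, had a log2 ratio of 0.57 (exact adjusted p = 3.80e-133). The 3 miR-29 miRNAs, known to raise p53 activity, held 0.517% of counts, and all 3 were lower in replicate 2 with library totals but 1 with TMM or DESeq2 size factors.

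Because miR-192, miR-194 and miR-215 are known from epithelia and liver, and miR-34b/c from ciliated and germ cells, marker miRNAs of these and other cell types were read beside them. The 5 myeloid markers, which include miR-223-3p, miR-142a-3p and miR-142a-5p, had counts in both libraries and held 7.68% of the counts in replicate 1 and 9.71% in replicate 2. miR-146a-5p had the highest mean of them, though miR-142a-5p was above it in replicate 1 (37030 against 27603 RpM). miR-146a-5p was higher in replicate 2, and the other 4 were lower with library totals, TMM and DESeq2 size factors. miR-122-5p, the defining miRNA of hepatocytes, had 0 counts in both libraries, which allows up to 0.410 and 0.371 RpM, while miR-192-5p stood at 835 and 1109 RpM. Of the 7 epithelial markers, 6 had counts in both libraries and miR-205-5p had 1 and 0 counts. Their sum was 174 and 187 RpM in replicates 1 and 2, less than miR-192-5p alone. The most abundant, miR-200b-3p, had 496 and 827 counts and was higher in replicate 2 like miR-192-5p and miR-215-5p (log2 ratio 0.59, exact adjusted p = 1.28e-12), whereas 2 others, miR-141-3p and miR-200c-3p, were lower with library totals and 1 was lower with TMM or DESeq2 size factors. The part of epithelial RNA in the counts of miR-192-5p, miR-194-5p and miR-215-5p was not tested. Besides miR-34b-5p and miR-34c-5p themselves, the ciliated and germ cell list held miR-449a-5p and miR-449c-5p, at 8.88 and 6.67 RpM together in replicates 1 and 2.

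Of the other marker lists, that of fibroblasts and smooth muscle had the highest sum. The 5 fibroblast and smooth muscle markers summed to 239 and 161 RpM in replicates 1 and 2, led by miR-143-3p at 187 and 117 RpM, and 2 of them were lower in replicate 2 with library totals, TMM and DESeq2 size factors. Both endothelial names, led by miR-126a-5p, summed to 62.5 and 46.2 RpM, and 1 was lower in replicate 2. The lymphoid miR-150-5p had 202 and 88 counts and was lower in replicate 2 as well. The erythroid miR-451a had 7 and 8 counts and miR-144-3p had 2 and 0. Among muscle markers miR-1a-3p and miR-206-3p had 0 counts in both libraries and miR-133a-3p had 0 and 6, and among neuronal markers miR-124-3p had 0 in both and miR-9-5p had 12 and 11. For all marker lists, the background is the share of all miRNAs called lower, which was 30.4% (library totals), 23.3% (TMM) and 21.6% (DESeq2 size factors), or called higher, which was 13.8%, 20.7% and 21.1%. The part of these cell types in the members' counts was not tested.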

How the data were processed

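The authors prepared small RNA libraries with the Illumina TruSeq protocol after rRNA removal, sequenced them on a HiSeq instrument, trimmed the reads and aligned them with Bowtie to miRBase stem-loops of the mouse. The table the authors deposited holds raw counts per mature miRNA name, 1 column per library. The miRBase release, the mismatches allowed and the treatment of reads with several matches are not given in the sources used here and can move counts between related names. The submitters' processing notes also name DESeq2.

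Counts were divided by the library total, as the study's methods do, and multiplied by 1000000. With 1 condition there was no contrast for edgeR to test, and Fisher's exact test per miRNA compared the libraries. TMM sizes came from edgeR 4.0.16 and size factors from DESeq2 1.42.0 in R 4.3.3. The DESeq2 size factor was 1 for each library, which leaves the raw counts unscaled. Python 3.11.15 with scipy 1.17.1 gave tests and intervals. Sequences are from RefSeq and positions from GENCODE. The text names the members, the other arms of their hairpins, names with a member's seed, the 2 names nearest each member in level, miR-21a-5p, 3 p53 lists and the cell type markers. The members and lists were chosen with earlier results of these data known.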

Additional observations from a re-analysis of the deposited data

How the results depend on the processing

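No paired analysis was possible because every library belongs to 1 condition. Of values recomputed with TMM, 16 of 18 moved by less than the SD or kept their side of the threshold, as did 15 of 18 with DESeq2 size factors, 10 of 10 with totals over miRNAs with at least 10 counts in each library and 7 of 17 with totals without miR-21a-5p. With miR-21a-5p left out of the total, the summed level of the 7 members was 2759 RpM (2020 before), that of the 4 miR-34 members 1342 RpM (982 before) and that of miR-192-5p with miR-215-5p 1342 RpM (984 before), by construction, as the total shrinks. The log2 ratio of miR-34a-5p, -0.06 with library totals, was 0.07 with TMM, 0.080 with DESeq2 size factors (exact adjusted p = 0.0291) and -0.11 without miR-21a-5p (exact adjusted p = 0.00181, called lower), since these scalings shift every ratio alike. In either library alone the sums ran from 1882 to 2158, from 977 to 987 and from 844 to 1124 RpM. With 2 libraries, leaving 1 out cannot move a mean by its SD, and the 23 values without each replicate and 22 from pooled reads are not counted above. All 7 members had at least 10 counts in each library, and all 7 had counts in both after thinning to equal totals. The number of miRNAs called between the libraries ran from 243 to 262, the latter without miR-21a-5p (72 higher and 190 lower in replicate 2). Depth limits the 3p arms of miR-192, miR-194 and miR-215, which lie near the floor.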
